A study of Homo sapiens with 12 samples.

Results

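The transcripts of 3 FOXO transcription factors, FOXO1, FOXO3 and FOXO4, and of 7 genes listed as their targets, KLHL24, PIK3IP1, CCNG2, TXNIP, FBXO32, CITED2 and BCL6, were followed through inhibition of PI3K and EZH2 in C4.2B cells. These 10 genes were selected by name, with earlier results of these data known, as a readout of lost PI3K signalling, and all 10 are among the 23228 genes listed in the count files. The values that stood behind that selection are those of the PI3K inhibitor and of the combination against vehicle, so the levels and changes in these 2 comparisons are given as a description with no test. The same holds for the combination against the PI3K inhibitor, as both of its arms enter these comparisons.

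C4.2B is a widely used line of castration-resistant human prostate cancer, and all values describe this 1 line. RNA was sequenced from 12 libraries in 4 arms of 3 replicates (A, B and C). All cells were first kept for 6 days with vehicle or with GSK126, an inhibitor of the histone H3 lysine 27 methyltransferase EZH2, and were then treated for 24 h in medium with 10% charcoal-stripped serum. The arms were vehicle throughout (DMSO), vehicle and then the PI3K inhibitor GDC-0941 at 0.5 µM (GDC), GSK126 at 5 µM throughout (GSK), and GSK126 at 5 µM throughout with GDC-0941 at 0.5 µM added for the last 24 h (COMBO). The 2 agents therefore acted for different times, and their changes are set side by side without a test between them. The replicates were parallel plates, so p-values measure the spread between plates of 1 experiment.

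FOXO proteins are forkhead transcription factors that PI3K restrains. Active PI3K leads to phosphorylation of FOXO by AKT, which promotes binding of FOXO to 14-3-3 proteins and its exclusion from the nucleus. When PI3K or AKT is inhibited, FOXO can return to the nucleus and induce genes of cell cycle arrest, protein breakdown, autophagy and feedback to growth factor receptors. RNA levels, which were measured here, show neither the phosphorylation nor the location of a FOXO protein.

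The libraries held between 8785218 and 44437751 counts in genes, and a count of 0 allowed up to 3 counts, or 0.0675 to 0.341 CPM (the count scaled to a fixed library size). Levels are given as CPM scaled by TMM, which corrects library sizes for differences in RNA composition, and as the mean ± SD with n = 3. Reads outside annotated genes made up 13.7% to 14.6% of the reads in DMSO, 15.2% to 15.7% in the GDC arm, 18.5% to 18.9% in GSK and 21.0% to 23.0% in COMBO. This share rose in the same order of arms as most of the levels below, and its part in them was not tested. All 7 prostate luminal markers examined (KLK2, KLK3, FOLH1, TMPRSS2, HOXB13, KRT8 and KRT18) were detected, with a summed level of 2796 to 3015 CPM in DMSO, 3914 to 4011 in the GDC arm, 3820.3 to 4182 in GSK and 4659 to 5021 in COMBO. The sum does not stand for each gene. From DMSO to COMBO, mean KLK3 went from 597 to 1843 CPM, HOXB13 from 484 to 304 and KRT18 from 322 to 319.7. KLK2, FOLH1, TMPRSS2 and KRT8 were higher in COMBO, as KLK3 was. KRT8, KRT18 and FOLH1 have pseudogene copies. KRT8 and KRT18 overlap each other on opposite strands, and TMPRSS2 overlaps MX1 on the other strand. Their values are uncertain to that extent. The summed level of 6 markers of other cell types was 17.7 to 20.0 CPM in DMSO, 21.3 to 26.2 in the GDC arm, 39.1 to 52.2 in GSK and 40.6 to 60.3 in COMBO. Of these, the leukocyte gene PTPRC, the fibroblast gene COL1A2 and the endothelial gene PECAM1 were listed at 0 in every DMSO and GDC library. They stayed at or below 0.330 CPM elsewhere. The others were detected in every arm and were higher in GSK and COMBO than in DMSO. In DMSO, GDC, GSK and COMBO, mean COL1A1 was 10.5, 11.9, 30.3 and 35.8 CPM, the largest part of the sum. CD68 was at 5.31, 5.85, 8.32 and 8.08 CPM. VWF, which has a pseudogene copy, was at 2.97, 5.66, 5.71 and 5.13 CPM. EZH2 transcript, which encodes the target of GSK126 and does not report inhibition of the enzyme, fell from 105 ± 2.75 CPM in DMSO through 81.8 ± 6.93 in the GDC arm and 56.3 ± 0.757 in GSK to 34.9 ± 0.815 in COMBO. In bulk RNA, a change in the share of cells that express a gene and a change in RNA per cell cannot be told apart.

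The FOXO factors themselves were higher in each inhibitor arm than in DMSO. FOXO3 (chr6:108559835-108684774, plus strand, hg38) was at 147, 134 and 135 CPM in DMSO libraries A, B and C, at 205, 187 and 212 in the GDC arm, at 349, 357 and 377 in GSK, and at 539, 591 and 615 in COMBO. No 2 arms overlapped. The fitted fold change was 2.61 in GSK against DMSO (adjusted p = 3.74e-14, edgeR) and 1.61 in COMBO against GSK (adjusted p = 4.66e-09), while COMBO was 4.21-fold above DMSO. FOXO3B, a near copy of FOXO3 on another chromosome that was counted as its own gene, had 23.3 ± 2.04 CPM in DMSO, 28.1 ± 1.54 in the GDC arm, 37.0 ± 4.47 in GSK and 56.9 ± 1.55 in COMBO. How reads that match both copies were treated is not given in the sources used here, so the split between FOXO3 and FOXO3B is uncertain. The same holds for FOXO1 with FOXO1B and CCNG2 with the pseudogene CCNG2P1.

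FOXO1 (chr13:40555667-40666641, minus strand) was far less abundant. Its 3 libraries stood at 8.10, 9.01 and 7.77 CPM in DMSO, at 10.3, 9.55 and 10.2 in the GDC arm, at 15.7, 16.9 and 19.4 in GSK, and at 24.7, 26.3 and 23.2 in COMBO. The arms did not overlap, but DMSO and GDC were close. FOXO1 rose 2.12-fold in GSK against DMSO (adjusted p = 6.51e-09, edgeR) and 1.43-fold in COMBO against GSK (adjusted p = 9.27e-05). In GDC against DMSO, a comparison behind the selection, its log2 fold change was 0.28 ± 0.11 (SE). This value ranged from 0.17 to 0.31 over 19 alternative analyses. FOXO1 is in the count of genes called there in the fit of all libraries and not in 13 of the 19. Nothing is read from that count. Among the fits in which FOXO1 was not in the count, the change was 0.23 without DMSO A, 0.17 without DMSO C and 0.22 without GDC A. It was 0.27 without GDC B, 0.22 without GDC C, and 0.24 without GSK A, GSK B or COMBO A.

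FOXO4 (chrX:71095851-71103532, plus strand) had nearly equal levels in GDC and GSK. It was at 11.9, 8.68 and 11.8 CPM in DMSO, at 20.6, 18.0 and 19.2 in the GDC arm, at 19.8, 19.2 and 21.0 in GSK, and at 30.5, 34.2 and 41.5 in COMBO. The GDC and GSK libraries overlapped. FOXO4 rose 1.84-fold in GSK against DMSO (adjusted p = 2.70e-06, edgeR) and 1.76-fold in COMBO against GSK (adjusted p = 5.77e-06). FOXO6, the remaining member of the family, has no row in the count files used here.

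KLHL24 and PIK3IP1 had the largest fold differences between arms. KLHL24 (chr3:183635610-183684519, plus strand) encodes a kelch protein that brings substrates to a cullin-3 ubiquitin ligase. It was at 22.8, 19.6 and 19.9 CPM in DMSO, at 95.7, 92.9 and 108 in the GDC arm, at 112, 117 and 118 in GSK, and at 269, 304 and 274 in COMBO. The arms did not overlap, although GDC and GSK lay close together. KLHL24 stood 4.84-fold higher in GDC than in DMSO and 13.8-fold higher in COMBO than in DMSO. It rose 5.68-fold in GSK against DMSO (adjusted p = 2.70e-16, edgeR) and 2.44-fold in COMBO against GSK (adjusted p = 2.52e-12), where it ranked 55 of 14189 tested genes by rise.

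PIK3IP1 (chr22:31281594-31292534, minus strand) encodes a membrane protein that binds the catalytic subunit of PI3K and inhibits it, and is thus a brake on the pathway that the inhibitor blocks. Its level was 2.84, 2.93 and 3.73 CPM in DMSO, 12.5, 9.61 and 10.9 in the GDC arm, 19.0, 24.7 and 21.8 in GSK, and 48.7, 50.7 and 50.5 in COMBO. Every COMBO library was above every GSK library, and every GSK library was above every GDC library. The rise was 6.54-fold in GSK against DMSO (adjusted p = 1.54e-13, edgeR) and 2.27-fold in COMBO against GSK (adjusted p = 1.83e-09). PIK3IP1 stood 4.59-fold higher in COMBO than in GDC. In COMBO it reached 14.9-fold of its DMSO level.

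TXNIP (chr1:145992435-145996579, minus strand) encodes an alpha-arrestin that binds thioredoxin and limits glucose uptake. It was the most abundant of the 10 genes per length under the combination. Its level was 125, 119 and 121 CPM in DMSO, 254, 248 and 256 in the GDC arm, 464, 502 and 485 in GSK, and 1028, 1065 and 1046 in COMBO. The arms were well apart, with an SD of at most 18.9 CPM. TXNIP rose 3.98-fold in GSK against DMSO (adjusted p = 2.20e-18, edgeR) and 2.16-fold in COMBO against GSK (adjusted p = 2.85e-14), and stood 2.08-fold higher in GDC than in DMSO.

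FBXO32, which encodes the F-box protein atrogin-1 of a ubiquitin ligase known from muscle wasting, was the least abundant of the genes per length. It was at 3.05, 2.05 and 2.86 CPM in DMSO, at 8.22, 6.65 and 8.52 in the GDC arm, at 9.12, 8.77 and 9.15 in GSK, and at 19.6, 18.8 and 20.6 in COMBO. DMSO libraries held 29, 37 and 119 counts of it, so its ratios against DMSO are the least precise. It rose 3.38-fold in GSK against DMSO (adjusted p = 1.03e-09, edgeR) and 2.18-fold in COMBO against GSK (adjusted p = 9.44e-08).

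BCL6 (chr3:187721377-187745725, minus strand), a zinc finger repressor of transcription, changed less. Its libraries were at 55.7, 52.8 and 51.0 CPM in DMSO, at 61.5, 65.7 and 62.6 in the GDC arm, at 71.1, 67.0 and 71.2 in GSK, and at 101, 113 and 110.3 in COMBO. Most of its rise was in COMBO. It was 1.32-fold higher in GSK than in DMSO (adjusted p = 3.59e-06, edgeR) and 1.55-fold higher in COMBO than in GSK (adjusted p = 1.77e-08).

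CCNG2 and CITED2 were the genes whose COMBO and GSK libraries overlapped. CCNG2 (chr4:77157207-77433388, plus strand) encodes cyclin G2, an unconventional cyclin associated with cell cycle arrest. It was at 92.9, 84.3 and 85.9 CPM in DMSO, at 130.4, 143 and 144 in the GDC arm, at 219, 227 and 212 in GSK, and at 235, 257 and 220.2 in COMBO. It rose 2.51-fold in GSK against DMSO (adjusted p = 1.30e-13, edgeR). COMBO exceeded GSK by 0.12 on the log2 scale, with a 95% interval of 0.00 to 0.24 and an adjusted p of 0.101. That comparison lay near the threshold and passed it in 9 of 19 alternatives, with a difference of 0.15 without DMSO A, 0.14 without DMSO B, 0.15 without GDC A, 0.15 without GDC B, 0.17 without GSK B and 0.17 without COMBO C.

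CITED2 (chr6:139371807-139374648, minus strand) encodes a coregulator that binds CBP and p300 and limits HIF-1. Its level was 137, 134 and 144 CPM in DMSO, 172, 178 and 198 in the GDC arm, 231, 236 and 214 in GSK, and 219, 244 and 218 in COMBO. COMBO and GSK had the same mean of 227 CPM. CITED2 rose 1.63-fold in GSK against DMSO (adjusted p = 1.61e-09, edgeR), and stood 1.24-fold higher in COMBO than in GDC. The log2 difference of COMBO from GSK was 0.00 with a 95% interval of -0.12 to 0.12 (adjusted p = 0.986).

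**Figure D1:**
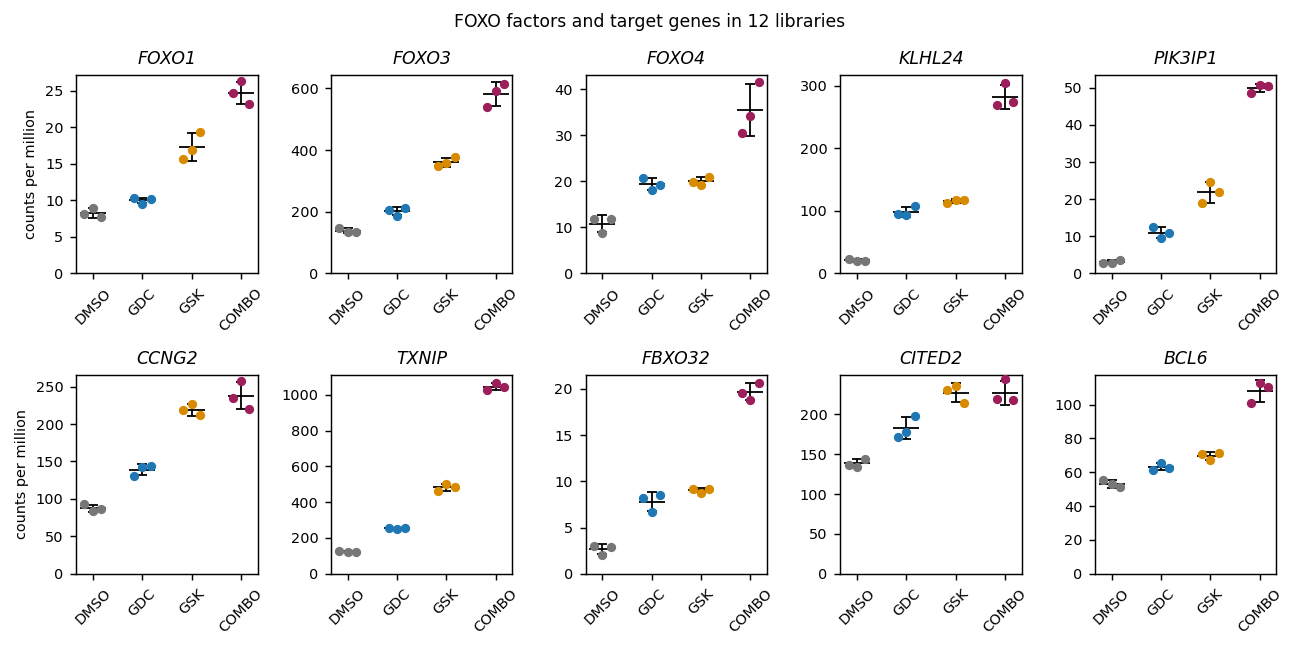
Level of each of the 10 genes in CPM (linear axes from 0) by arm. Points are libraries A, B and C from left to right, and bars give the mean ± SD (n = 3). COMBO is above GSK with no overlap for 8 of the 10 genes, as for 22.0% of all tested genes, and the libraries of these 2 arms overlap for CCNG2 and CITED2.

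Read per kilobase of the canonical transcript, so that genes can be compared, the order in DMSO ran from CITED2 at 58.2 ± 2.26 CPM per kb and TXNIP at 41.9 ± 1.08 through FOXO3 at 19.0 ± 0.998, BCL6 at 16.1 ± 0.713 and CCNG2 at 16.0 ± 0.838. FOXO4 followed at 2.96 ± 0.501, KLHL24 at 2.83 ± 0.245, FOXO1 at 1.44 ± 0.111, PIK3IP1 at 1.31 ± 0.202 and FBXO32 at 0.394 ± 0.0793. Neighbours whose difference lay within their SD in DMSO were BCL6 and CCNG2, FOXO4 and KLHL24, and FOXO1 and PIK3IP1. In COMBO, TXNIP led at 360.1 ± 6.40 CPM per kb, ahead of CITED2 at 95.2 ± 6.21 and FOXO3 at 79.7 ± 5.31, and KLHL24 at 38.5 ± 2.57 stood above BCL6 at 32.6 ± 1.95. FOXO3 was the most abundant FOXO factor per length in every arm, with 79.7 CPM per kb in COMBO against 9.71 ± 1.54 for FOXO4 and 4.28 ± 0.263 for FOXO1.

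**Figure D2:**
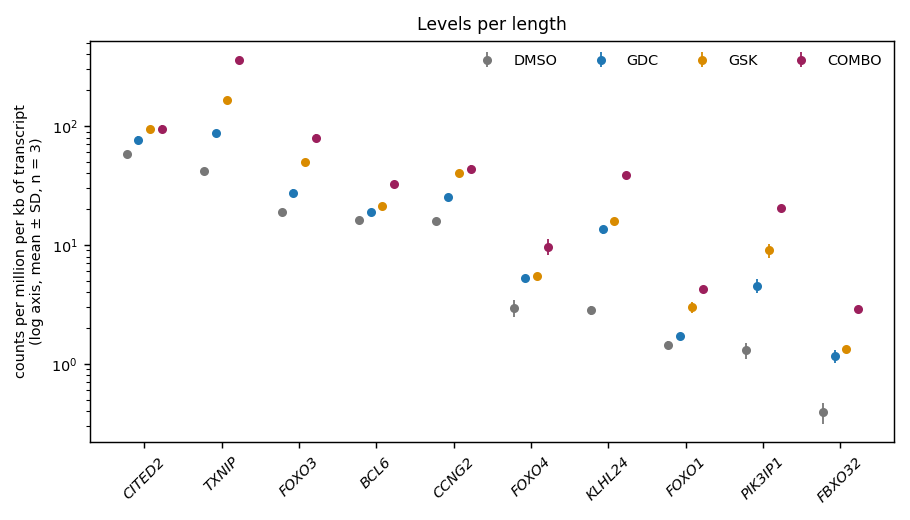
Level of the 10 genes in CPM per kb of canonical transcript on a log axis, ordered by the DMSO level, with the mean ± SD of 3 libraries per arm. TXNIP passes CITED2 in the GDC, GSK and COMBO arms, and KLHL24 rises from 2.83 in DMSO to 38.5 in COMBO.

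Promoter sequence was examined for forkhead motifs because FOXO factors bind such sites, and for the E-box CACGTG because the sugar-sensing factors that drive TXNIP bind elements of that kind. RefSeq (GRCh38.p14) gave 17 windows, from 250 bases before to 50 after a transcript start, for 9 of the 10 genes. Both strands were searched for GTAAACA and ATAAACA. Of all 35093 windows in the table, 3.42% held GTAAACA, 4.24% held ATAAACA, 7.43% held either and 7.26% held CACGTG. Among the listed genes, 4 of 9 had a forkhead match in a window, and 2 had an E-box match, where 8.98% and 8.77% of all genes in the table did. The 9 genes had 17 windows, and the 27305 genes of the table had 35093. More windows per gene were thus searched for the listed genes, so these shares are not directly comparable. The stretches with a match are shown 5′ to 3′ on the strand of the gene, with the motif in capitals. The positions given are those of the stretches shown. The TXNIP stretch is chr1:145996657-145996743, upstream of the gene, and its motif begins 124 bases before the start. The FOXO3 stretch is chr6:108560667-108560729, with the motif 234 bases before an alternative start and within an intron of FOXO3 in GENCODE. Those of FOXO4 at chrX:71095863-71095891 and of PIK3IP1 at chr22:31292455-31292483 hold the motif in a UTR, 24 bases into the FOXO4 transcript and 17 bases past an alternative start of PIK3IP1, and the PIK3IP1 match reads TGTTTAC on the strand of the gene. The E-boxes of CCNG2 at chr4:77157166-77157193 and of CITED2 at chr6:139374756-139374841 begin 30 and 153 bases upstream of a start.
TXNIP: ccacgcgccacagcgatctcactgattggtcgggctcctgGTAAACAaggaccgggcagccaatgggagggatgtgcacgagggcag
FOXO3: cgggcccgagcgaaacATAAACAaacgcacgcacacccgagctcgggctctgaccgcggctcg
FOXO4: cccggcgagtgGTAAACAgagacgtcagg
PIK3IP1: taaagagaggcTGTTTACcagaacagcat
CCNG2: ccgcggggagtCACGTGccccgccccct
CITED2: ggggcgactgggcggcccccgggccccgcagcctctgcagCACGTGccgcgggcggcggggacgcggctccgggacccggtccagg

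The windows of FOXO1, KLHL24 and BCL6 held none of these motifs, and those of TXNIP held no CACGTG. No match says only that the letters are not in these windows. Only the exact letters were searched, so variants were not counted, such as the CACGAG in the TXNIP stretch shown. Binding was not measured, and a match is a description of the sequence.

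The response to PI3K inhibition could be tested in cells that also received GSK126, since COMBO and GSK do not enter the comparison of GDC with DMSO. COMBO does enter COMBO against DMSO, so this test is not fully apart from the values behind the selection. In COMBO against GSK, 8 of the 10 genes were higher and 0 were lower, where 19.0% of all 14189 tested genes were higher and 26.9% were lower at an adjusted p under 0.05. All 10 genes passed the filter on low counts. Their median log2 fold change was 0.75, and 1.11 over the 7 target genes, against -0.0136 over all tested genes. KLHL24 had the largest rise at 1.28 ± 0.062 (SE), with PIK3IP1 at 1.18 ± 0.089, FBXO32 at 1.12 ± 0.11 and TXNIP at 1.11 ± 0.039. FOXO4 at 0.81 ± 0.11, FOXO3 at 0.69 ± 0.055, BCL6 at 0.63 ± 0.056 and FOXO1 at 0.51 ± 0.089 followed.

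In GDC against DMSO the same agent was added without GSK126, and here the values are a description. All 10 genes were called higher and 0 lower, beside 20.0% of tested genes higher and 20.0% lower, a count on the values behind the selection from which nothing is read. The median log2 fold change was 0.75 over the 10 genes and 1.06 over the 7 targets, against 0.0160 over all tested genes. KLHL24 changed by 2.27 ± 0.073 (SE), PIK3IP1 by 1.69 ± 0.14, FBXO32 by 1.54 ± 0.14 and TXNIP by 1.06 ± 0.041. FOXO4 at 0.82 ± 0.12, CCNG2 at 0.68 ± 0.060, FOXO3 at 0.54 ± 0.058 and CITED2 at 0.40 ± 0.060 were smaller, and BCL6 at 0.26 ± 0.057 was of the size of FOXO1.

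**Figure D3:**
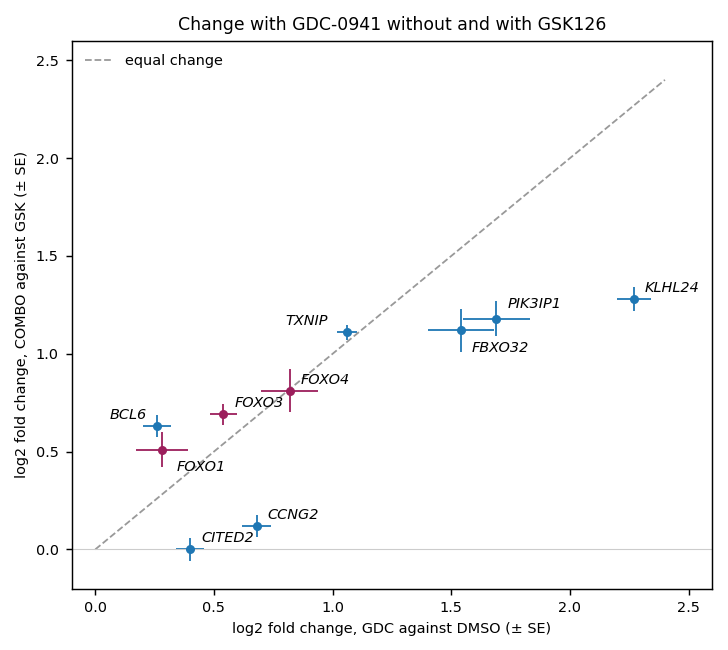
Log2 fold change with GDC-0941 in cells without GSK126 (x axis, GDC against DMSO) and with it (y axis, COMBO against GSK), each ± SE, for the 3 FOXO factors (purple) and 7 targets (blue). TXNIP and FOXO4 lie on or next to the dashed line of equal change, KLHL24, PIK3IP1, FBXO32, CCNG2 and CITED2 lie below it, and FOXO1, FOXO3 and BCL6 lie above it.

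The interaction, COMBO minus GSK minus GDC plus DMSO on the log2 scale, gives the departure of the combination from the sum of the single changes. It contains the arms of the comparisons behind the selection and is therefore given as a value and SE with no test. Selection with those values known can shift it in either direction, so nothing is read from its sign. The interaction was closest to 0 for FOXO4, at -0.01 ± 0.16 (SE), and for TXNIP, at 0.06 ± 0.057. The fold change of TXNIP with GDC-0941 was 2.08 without GSK126 and 2.16 with it. The interaction was -0.99 ± 0.095 for KLHL24, -0.56 ± 0.083 for CCNG2, -0.51 ± 0.16 for PIK3IP1, -0.42 ± 0.18 for FBXO32 and -0.40 ± 0.084 for CITED2. On the log2 scale, the measured change of these genes with GDC-0941 was smaller with GSK126 than without it. The interaction was 0.37 ± 0.080 for BCL6, 0.23 ± 0.14 for FOXO1 and 0.15 ± 0.080 for FOXO3.

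The whole group was higher with GSK126 alone than in DMSO. In GSK against DMSO, 10 of the 10 genes were higher and 0 lower, where 40.0% of tested genes were higher and 35.7% lower. This comparison shares the DMSO libraries with GDC against DMSO and COMBO against DMSO. It is therefore not fully apart from the values behind the selection. The median log2 fold change was 1.36 over the 10 genes and 1.76 over the 7 targets, against 0.0585 over all tested genes. PIK3IP1 at 2.71 ± 0.12 (SE), KLHL24 at 2.50 ± 0.073 and TXNIP at 1.99 ± 0.042 changed most. BCL6 at 0.40 ± 0.058 and CITED2 at 0.71 ± 0.060 changed least. For 9 of the 10 genes every GSK library was also above every GDC library, FOXO4 being the exception, where this held for 34.6% of all tested genes. Exposure to GSK126 was longer than to GDC-0941.

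The addition of GSK126 to GDC-0941 is given as a description. In COMBO against GDC, 10 genes were called higher and 0 lower, beside 37.9% of tested genes higher and 38.0% lower. Both arms of this comparison enter the comparisons behind the selection, so nothing is read from this count. The median was 1.33 over the 10 genes and 1.34 over the 7 targets, against 0.0181 over all tested genes. PIK3IP1 at 2.20 ± 0.096 (SE) and TXNIP at 2.05 ± 0.041 rose most, and KLHL24, which GDC-0941 had already raised, changed by 1.52 ± 0.062. The FOXO factors changed by 1.53 ± 0.057 (FOXO3), 1.32 ± 0.094 (FOXO1) and 0.87 ± 0.11 (FOXO4).

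The combination against vehicle is again a description. All 10 genes were called higher and 0 lower in COMBO against DMSO, beside 43.3% of tested genes higher and 39.2% lower, and nothing is read from this count either. The median log2 fold change was 1.89 over the 10 genes and 2.88 over the 7 targets, against 0.0545 over all tested genes. The values ran from 0.71 ± 0.059 (SE) for CITED2 and 1.03 ± 0.055 for BCL6 to 3.79 ± 0.072 for KLHL24 and 3.89 ± 0.11 for PIK3IP1.

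Correlation of the 10 genes across the 12 libraries is given as a description. Pearson's r of log2 CPM ranged from 0.76 (CITED2 and BCL6) to 0.99 over 45 pairs, where the points share their arms. The genes were selected with their changes in GDC and COMBO against DMSO known, so a high r was favoured in advance. No r over pairs of other genes is given for comparison, and nothing is read from these values. The genes whose pattern was most like that of KLHL24, of 11293 compared over 12 libraries, were FTL, SLC2A12, APP, MAOA and CXCR7, with r of 0.995, 0.995, 0.995, 0.993 and 0.991. SLC2A12, which encodes a glucose transporter, was at 7.55 ± 0.609 CPM in DMSO, 23.9 ± 1.54 in the GDC arm, 25.8 ± 2.07 in GSK and 49.5 ± 2.37 in COMBO. FTL, the ferritin light chain, was at 123 ± 2.21, 198 ± 6.44, 204 ± 4.40 and 274 ± 5.41 CPM in the same order. Like KLHL24, both had nearly equal levels in GDC and GSK and their highest level in COMBO.

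A list of 28 other genes known to be induced by FOXO, 22 of which passed the filter, was examined for the same pattern. In COMBO against GSK, 14 were higher, 3 were lower and 5 were not called, where 19.0% of all tested genes were higher and 26.9% lower. Their median log2 fold change was 0.39 against -0.0136 over all tested genes. IRS2, the insulin receptor substrate that FOXO induces as feedback, had the largest change. It was at 9.68, 13.0 and 11.3 CPM in DMSO, at 31.5, 34.7 and 35.0 in the GDC arm, at 16.0, 12.5 and 15.2 in GSK, and at 45.1, 46.2 and 46.8 in COMBO. IRS2 was therefore high in the arms with GDC-0941, and rose 3.18-fold in COMBO against GSK (adjusted p = 1.47e-11, edgeR). BBC3, the pro-apoptotic protein PUMA, had the same shape at lower level, with 2.76 CPM in DMSO, 6.16 in the GDC arm, 2.28 in GSK and 5.97 in COMBO on average, and rose 2.62-fold in COMBO against GSK (adjusted p = 1.02e-06). TNFSF10, which encodes the death ligand TRAIL, was at 6.39 CPM in DMSO, 7.15 in the GDC arm, 59.2 in GSK and 33.0 in COMBO on average. It went the other way in COMBO against GSK, with a fall of 0.84 on the log2 scale (adjusted p = 3.52e-07, edgeR). In COMBO it was still 5.14-fold above DMSO.

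The other genes of this list are named after their values were seen. In GDC against DMSO, 17 of the 22 were higher and 1, BNIP3, was lower, with a median log2 fold change of 0.48, where 20.0% of all tested genes were called in each direction. In GSK against DMSO, 13 were higher and 4 lower, with a median of 0.54, where 40.0% of all tested genes were higher and 35.7% lower. The 5 not called were ATG14, BBC3, INSR, MXI1 and RBL2. All 5 were higher in GDC than in DMSO and higher in COMBO than in GSK. The insulin receptor gene INSR, for example, changed by 0.53 in GDC against DMSO and by 0.48 in COMBO against GSK on the log2 scale, and by 0.05 in GSK against DMSO with a 95% interval of -0.08 to 0.18. MXI1, a MAX-binding antagonist of MYC, changed by 0.56, 0.52 and 0.07, the last with an interval of -0.03 to 0.18. The 10 selected genes were all called higher in GSK against DMSO, but these 5 were taken because they were not called there. No difference between the gene groups follows from that choice, and none was tested.

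Further genes of the list rose strongly with GSK126. The sestrins, stress proteins that restrain mTORC1, were examples. SESN1 was at 64.4 CPM in DMSO, 99.0 in the GDC arm, 284 in GSK and 397 in COMBO, and SESN3 at 52.3, 72.1, 224 and 185. Of genes linked to autophagy, GABARAPL1, PINK1 and TP53INP1 changed by 1.22, 1.58 and 1.56 on the log2 scale in GSK against DMSO, while ATG14 changed by 0.09 and was not called and BNIP3 fell by 0.52. Of the antioxidant genes, SOD2 and PRDX3 fell in GSK against DMSO, by 0.89 and 0.34 on the log2 scale, while the catalase gene CAT rose by 0.71. CDKN1B, a cell cycle inhibitor, fell by 0.50. In COMBO against GDC 14 genes were higher and 5 lower (median 0.46), where 37.9% and 38.0% of all tested genes were. In COMBO against DMSO 18 were higher and 4 lower (median 0.96), where 43.3% and 39.2% of all tested genes were. The gluconeogenic FOXO targets PCK1 and G6PC, PDK4, IGFBP1, FASLG and TRIM63 did not pass the filter, with mean levels of at most 0.19 CPM in any arm. Values of CDKN1B, RBL2, SOD2 and ATG14, which overlap a counted gene on the other strand, of BBC3, which overlaps microRNA genes, and of BNIP3 and PRDX3, which have pseudogene copies, are uncertain to that extent.

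**Figure D4:**
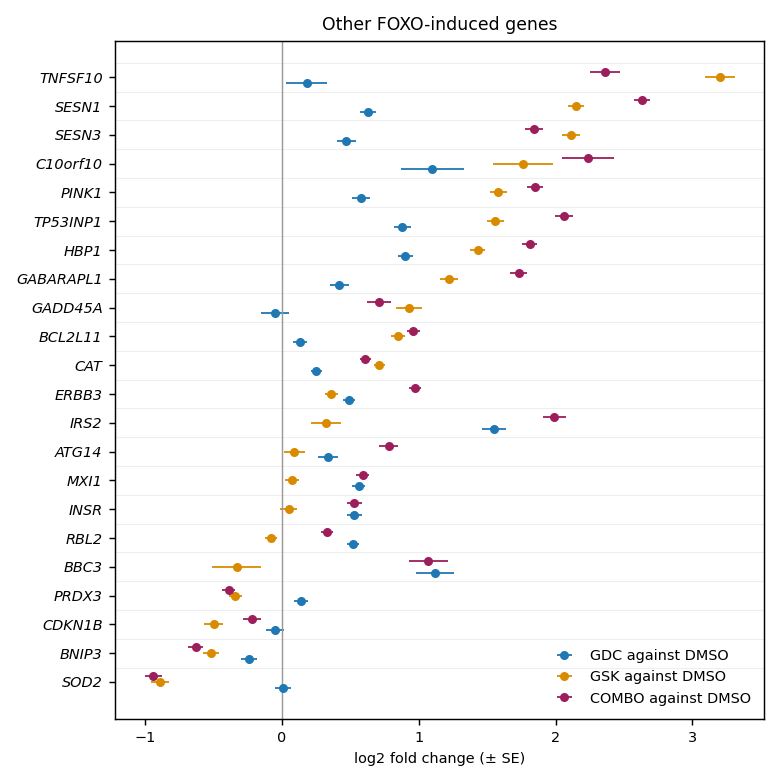
Log2 fold change ± SE against DMSO of the 22 tested genes of the list, ordered by the change in GSK. The 3 comparisons share the DMSO libraries. IRS2, BBC3, INSR, MXI1 and RBL2 have GDC values far above their GSK values, while SESN1, SESN3 and TNFSF10 have GSK values far above their GDC values.

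Transcripts of proteins that regulate FOXO moved in both directions. Of 26 listed genes, 25 were in the files and 23 were tested, and in COMBO against GSK 3 were higher, 10 were lower and 10 were not called, with a median log2 fold change of -0.14, where 19.0% of all tested genes were higher and 26.9% lower. CDK2, a kinase that phosphorylates FOXO1, was at 138 CPM in DMSO, 113 in the GDC arm, 64.1 in GSK and 30.4 in COMBO, and fell by 1.08 on the log2 scale in COMBO against GSK (adjusted p = 7.99e-12, edgeR). It overlaps PMEL on the other strand, and whether the counting used strand is not given in the sources used here. YWHAB, YWHAE, YWHAQ, YWHAZ and SKP2 have pseudogene copies that may share reads. YWHAH, a 14-3-3 protein, was at 126, 99.1, 74.0 and 54.9 CPM in the same order and fell by 0.42 (adjusted p = 4.40e-05). Of the 6 tested 14-3-3 genes, 5 (YWHAB, YWHAE, YWHAG, YWHAH and YWHAQ) were lower in COMBO against GSK, and YWHAZ changed by -0.09 and was not called. The 3 that were higher were the acetyltransferase genes CREBBP (0.29) and EP300 (0.32) and the deacetylase gene SIRT1 (0.41).

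SGK1, a kinase that phosphorylates FOXO as AKT does, moved in opposite directions with the 2 agents. It was at 2.84, 3.10 and 3.44 CPM in DMSO, at 1.86, 1.42 and 1.94 in the GDC arm, at 19.3, 18.3 and 17.4 in GSK, and at 9.06, 10.5 and 10.4 in COMBO. The log2 fold change was 2.50 in GSK against DMSO (adjusted p = 2.58e-13, edgeR), -0.91 in GDC against DMSO and -0.87 in COMBO against GSK (adjusted p = 9.67e-07). Over the whole list, 6 genes were higher and 14 lower in GSK against DMSO (median -0.24), 1 and 13 in GDC against DMSO (median -0.15), 7 and 14 in COMBO against GDC (median -0.43), and 7 and 13 in COMBO against DMSO (median -0.29). For all tested genes, the shares higher and lower were 40.0% and 35.7% in GSK against DMSO, 20.0% and 20.0% in GDC against DMSO, 37.9% and 38.0% in COMBO against GDC, and 43.3% and 39.2% in COMBO against DMSO. SKP2, which encodes a ubiquitin ligase subunit that targets FOXO1, had the largest fall of the list in GSK against DMSO, with a log2 fold change of -1.54 (adjusted p = 2.71e-15). It was named after its values were seen.

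The components of the PI3K pathway showed no common direction. Of 20 genes, 19 were tested, and in COMBO against GSK 5 were higher, 10 lower and 4 not called, with a median log2 fold change of -0.12, where 19.0% of all tested genes were higher and 26.9% lower. PIK3R3, a regulatory subunit of PI3K, was at 145 CPM in DMSO, 131 in the GDC arm, 329 in GSK and 186 in COMBO, and fell by 0.82 on the log2 scale in COMBO against GSK (adjusted p = 1.32e-11, edgeR). INPP4B, a phosphatase that acts on a lipid product of PI3K, changed by 0.59 (adjusted p = 5.52e-05), and RICTOR, the mTORC2 subunit, by 0.50 (adjusted p = 1.20e-04). In GSK against DMSO 7 were higher and 7 lower (median 0.02), in GDC against DMSO 6 and 5 (median 0.07), in COMBO against GDC 7 and 9 (median 0.07), and in COMBO against DMSO 10 and 9 (median 0.16). The shares of all tested genes in these comparisons, higher and lower, were 40.0% and 35.7%, 20.0% and 20.0%, 37.9% and 38.0%, and 43.3% and 39.2%, in that order.

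AKT1, which encodes a kinase that inactivates FOXO, fell by 0.36 in COMBO against GSK on the log2 scale (adjusted p = 4.70e-06, edgeR) and by 0.40 in GSK against DMSO (adjusted p = 2.17e-07), from a mean of 295 CPM in DMSO to 175 in COMBO. AKT2 was at 161, 169, 163 and 142 CPM in DMSO, GDC, GSK and COMBO. RICTOR overlaps a counted gene on the other strand and AKT2 overlaps a microRNA gene, so these values are uncertain to that extent.

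TXNIP was set beside its arrestin relatives and the genes of its sugar-sensing regulators. Of these 7 genes, all tested, 4 were higher and 2 lower in COMBO against GSK, with a median log2 fold change of 0.39, where 19.0% of all tested genes were higher and 26.9% lower. ARRDC3 rose 1.60-fold (adjusted p = 3.81e-08, edgeR), from 108, 119.8 and 119 CPM in GSK to 180.1, 202 and 172 in COMBO. ARRDC4, a further glucose-responsive arrestin, was at 25.4 CPM in DMSO, 25.3 in the GDC arm, 27.8 in GSK and 40.3 in COMBO, and rose 1.45-fold in COMBO against GSK (adjusted p = 7.36e-06). In GDC against DMSO the log2 change of ARRDC4 was 0.01, where that of TXNIP was 1.06. MLXIPL, which encodes the sugar-responsive factor ChREBP, changed by 0.50 in COMBO against GSK (adjusted p = 0.0391), a call that was lost without GSK A (0.49), GSK C (0.46), COMBO A (0.34) or COMBO C (0.48). MLX, its binding partner, which overlaps PSMC3IP on the other strand, and ARRDC1 were lower, at -0.43 and -0.36. In GSK against DMSO 3 were higher and 1 lower (median 0.21), in GDC against DMSO 3 and 1 (median 0.08), in COMBO against GDC 4 and 1 (median 0.24), and in COMBO against DMSO 4 and 1 (median 0.60). In the same order, 40.0% and 35.7%, 20.0% and 20.0%, 37.9% and 38.0%, and 43.3% and 39.2% of all tested genes were higher and lower.

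**Figure D5:**
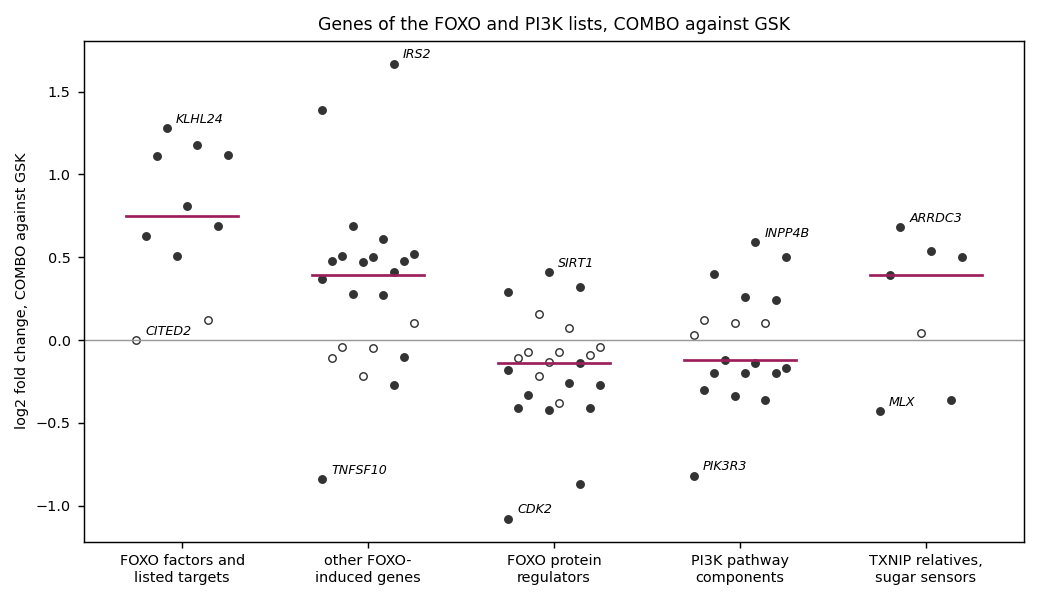
Log2 fold change in COMBO against GSK of the 10 selected genes and of the tested genes of the 4 lists. Filled points have an adjusted p under 0.05 (edgeR), open points do not, purple lines are medians, and the highest and lowest gene of each list are named. The medians are 0.75, 0.39, -0.14, -0.12 and 0.39 from left to right.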

How the data were processed

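RNA-seq of 12 libraries of C4.2B cells was analysed. Per the labels, the authors used STAR for alignment to hg38 and HTSeq for counting. The deposited values are raw counts of whole reads for each gene symbol. Tool versions, the gene annotation and whether strand was used are not given in the sources used here. A deposited table of counts divided by DESeq2 size factors was not used. There were 0 columns that mapped to no library.

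The 5 HTSeq summary lines (13.7% to 23.0% of reads for those outside genes) were left out of library sizes. Genes were kept by filterByExpr (14189 of 19935 with a count) and tested by quasi-likelihood in edgeR 4.0.16 (R 4.3.3) with TMM scaling, in 1 fit of all 12 libraries with no covariate. The test is two-sided, and p-values were adjusted by Benjamini-Hochberg over all tested genes at a threshold of 0.05. The SE is the log2 fold change divided by the square root of the test statistic. The common biological coefficient of variation was 0.0499. Replicates differed by more than sampling noise (the chi-square over its degrees of freedom was 1.82 to 6.70 between replicate pairs), and each library was 1 replicate. The script was tested on simulated data. Floors of 3 counts cover counting error only.

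The 10 genes and the 4 lists were chosen with earlier results of these data known. Beside the 10 genes, the named genes were the 3 of each list with the largest absolute change in COMBO against GSK (adjusted p under 0.05, mean log2 CPM of at least 2), the 5 most like KLHL24 over the libraries (prior count of 2), AKT1, AKT2, FOXO6 and EZH2. Some further listed genes are not reported here and were left out of the lists. Others are named after their values were seen. Gene coordinates and transcript lengths are from GENCODE 44. None of the 10 genes overlaps another counted gene there. No protein sequences were used here. The results were recomputed with a replicate block, without each library, with only the arms compared, with every gene or with genes of a mean of 1 CPM or more, with other scaling (totals alone, or size factors of DESeq2) and with the test of DESeq2 1.42.0.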

Additional observations from a re-analysis of the deposited data

How the results depend on the processing

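All counts of the 10 genes called in each of the 5 comparisons stayed within 1.5 times of the reported count under all 19 alternatives, and the only calls that changed were those of CCNG2 in COMBO against GSK and of FOXO1 in GDC against DMSO, each given above. For GDC and COMBO against DMSO and for COMBO against GDC, this describes the counts only. Over the 10 genes and the 12 named list genes, 1152 of 1178 recomputed values kept their direction and their side of the threshold, 17 no longer passed it, 9 newly passed it and 0 reversed. CCNG2 had a log2 fold change of 0.05 to 0.17 in COMBO against GSK, with an adjusted p of 0.0151 to 0.450 (edgeR or DESeq2). The interaction of KLHL24 ranged from -1.04 to -0.86, that of PIK3IP1 from -0.66 to -0.34, that of FBXO32 from -0.50 to -0.23, that of FOXO4 from -0.11 to 0.18, that of FOXO3 from 0.12 to 0.27 and that of TXNIP from 0.05 to 0.15. Scaling by library totals shifted the median of all genes by 0.15 in GSK against DMSO, 0.17 in COMBO against GDC and 0.21 in COMBO against DMSO on the log2 scale. The share of calls that were higher then moved from 41.4% to 52.3% in COMBO against GSK, from 52.8% to 64.0%, from 49.9% to 62.8% and from 52.5% to 63.3% in these 3. In GDC against DMSO, 2841 genes were called higher and 2843 lower, but 2132 and 3801 without a filter on low counts, 2342 and 3488 with DESeq2 size factors and 2088 and 3239 with DESeq2. The cause was not tested.

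Replicate letters showed little pairing of the libraries, and weak pairing is not excluded. Deviations of same-letter libraries correlated at -0.084 to 0.188 over 18 pairs, and 6 of 12 libraries correlated best with their own letter. With a replicate block, 8 of the 10 genes were higher in COMBO against GSK and 10 in GSK against DMSO. The count in GDC against DMSO, from which nothing is read, was then 9, without FOXO1. Depth limits FBXO32 most, and counts of 29 to 119 stood behind it in DMSO.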
